A study of Mus musculus with 33 samples.

Results

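Ifit1, Ifit2, Ifit3, Isg15, Isg20, Rsad2, Cmpk2, Xaf1, Ifi27 and Ifi35 are interferon-inducible genes, most of which encode proteins that act against viruses or carry out other interferon effects inside the cell. Their expression was followed in the bone marrow of mice given the BCL2 inhibitor venetoclax or the JAK1/2 inhibitor ruxolitinib. They are 10 of the 750 endogenous genes on the probe panel, found by gene symbol, and all 10 were above background in enough lanes to be among the 655 genes tested. The members were chosen by name with their day 1 differences between drug-treated and vehicle-treated mice already known, so those differences are given as a description, with no p-value. Counts of genes called on day 1 stand beside the share of all genes called, and nothing is read from them. Counts from other fits, and counts at an unadjusted p under 0.05, have no such share beside them. Nothing is read from those counts either.

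Total bone marrow (BM) RNA of 33 female C57BL/6 mice, 6 to 8 weeks old, was measured on the NanoString nCounter, which counts colour-coded probes bound to their target RNA without amplification, in 1 lane per mouse. Wild-type mice received venetoclax once daily or ruxolitinib 2 times daily by oral gavage for 2 days, and 3 mice per drug were studied on each of days 1, 3 and 7 after treatment. Each drug had its own vehicle, phosal, polyethylene glycol and ethanol for venetoclax and DMSO, polyethylene glycol and water for ruxolitinib, with 2 mice per vehicle and day, and 3 mice were untreated. The 11 lanes of each day, 1 untreated mouse among them, made up 1 of 3 instrument runs, which means that a day cannot be told apart from its run. The labels of these groups name no transgene, transplant or irradiation.

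Type I interferons bind the receptor pair IFNAR1 and IFNAR2, which activates the kinases JAK1 and TYK2. The signal ends at the interferon-stimulated response element (ISRE) in the promoters of the target genes. Interferon gamma signals through JAK1 and JAK2 to another promoter element, the gamma-activated sequence (GAS). Many of the target genes keep a low level of expression without infection, in bone marrow as in other tissues, and JAK1 and JAK2 are the kinases that ruxolitinib inhibits.

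The promoters of the members were searched for both elements, since the genes were selected as targets of a shared pathway. RefSeq start sites of mouse build GRCm38.p6 were listed for 9 of the 10 members, all but Ifi27. The ISRE was searched as GAAANNGAAA and the GAS as TTCNNNGAA, on both strands, from 250 bases before to 50 bases after each start site. The ISRE pattern was present at 4 of the 9 genes, Isg15, Ifit3, Ifit1 and Rsad2, and at 3.99% of the 27025 genes listed. These 4 promoters are printed as the 250 bases before the start site, in the direction of transcription, with ISRE matches in capitals (TTTCNNTTTC where the match is on the other strand).
Isg15 (chr4:156200819-156201068, minus strand): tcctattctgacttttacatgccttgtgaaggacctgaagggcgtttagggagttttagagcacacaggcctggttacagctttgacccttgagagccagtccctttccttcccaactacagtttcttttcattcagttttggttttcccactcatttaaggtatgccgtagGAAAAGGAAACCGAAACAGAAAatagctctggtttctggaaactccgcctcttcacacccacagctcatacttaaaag
Ifit3 (chr19:34583279-34583528, plus strand): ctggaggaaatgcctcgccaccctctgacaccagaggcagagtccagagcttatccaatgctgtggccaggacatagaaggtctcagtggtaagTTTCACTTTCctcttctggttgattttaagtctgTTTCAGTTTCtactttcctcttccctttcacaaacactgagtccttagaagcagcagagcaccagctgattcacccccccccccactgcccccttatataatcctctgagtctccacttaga
Ifit1 (chr19:34640639-34640888, plus strand): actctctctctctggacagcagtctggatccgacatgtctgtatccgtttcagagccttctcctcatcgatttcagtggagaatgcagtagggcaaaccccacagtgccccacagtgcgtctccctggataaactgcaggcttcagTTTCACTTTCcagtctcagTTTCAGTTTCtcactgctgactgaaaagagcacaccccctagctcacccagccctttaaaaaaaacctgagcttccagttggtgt
Rsad2 (chr12:26456453-26456702, minus strand): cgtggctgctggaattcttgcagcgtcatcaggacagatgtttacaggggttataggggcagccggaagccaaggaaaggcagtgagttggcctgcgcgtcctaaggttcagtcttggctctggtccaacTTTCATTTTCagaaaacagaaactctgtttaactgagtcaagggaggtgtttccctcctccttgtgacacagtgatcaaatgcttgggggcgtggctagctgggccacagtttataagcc

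In Isg15 the 3 matches overlapped each other in a run of capitals from base -78 to base -57. Ifit3 held 2 separate matches that start at bases -156 and -122, Ifit1 held 2 that start at bases -104 and -85, and Rsad2 held 1 that starts at base -120. The GAS pattern, which is at 9.55% of the genes listed, was found at Ifit2, Isg20 and Ifi35 and overlapped no ISRE match. Neither pattern was found at Cmpk2 or Xaf1, which says only that these letters are not in the windows searched. Ifit3 has a close neighbour copy, Ifit3b, and their windows share a run of 169 identical bases. Whether the Ifit3 probe also binds Ifit3b RNA was not tested.

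**Figure D1:**
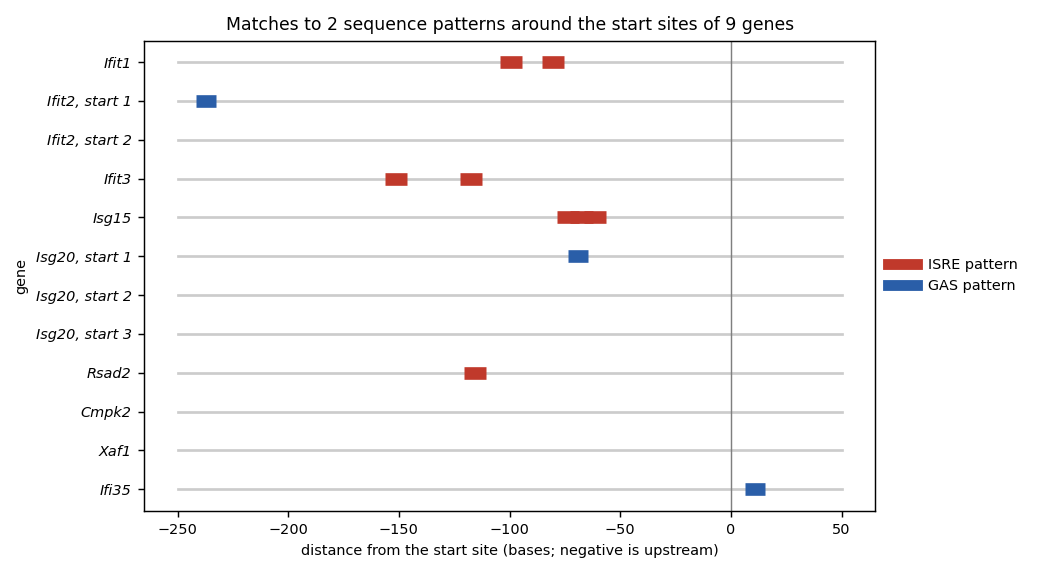
Each grey line is the window from 250 bases before to 50 bases after a start site (horizontal axis, distance in bases), 1 line per listed start site of 9 genes. Red blocks mark ISRE matches, which lie upstream of the start site in Ifit1, Ifit3, Isg15 and Rsad2, and blue blocks mark GAS matches in Ifit2, Isg20 and Ifi35.

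Lanes held 18056 to 466096 endogenous counts (median 158944), and 2 lanes held fewer than 30000, Venetoclax day 1 replicate 1 with 18056 and Ruxolitinib day 3 replicate 1 with 26881. S100a8, abundant in the neutrophils of bone marrow, gave 32.53% to 68.84% of the endogenous counts of a lane. Values below are normalised counts, which are counts divided by the lane's housekeeping level. Background was set in each lane from its 8 negative control probes, at 2 SD over their mean. Cmpk2, Isg20, Rsad2 and Ifi27 were above it in 33 of 33 lanes, Ifit3 and Ifi35 in 32, Xaf1 in 31, Ifit2 in 30, Isg15 in 29 and Ifit1 in 21. The levels of different probes are not compared with each other, since probes bind with different efficiency.

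On day 1 after ruxolitinib, transcripts of all 10 members were lower than in mice given its vehicle, by 7.02-fold for Ifit3, 3.59-fold for Xaf1 and 3.31-fold for Rsad2. Isg15 was 5.56-fold lower in counts that were mostly at background after the drug. With background subtracted, limma gave log2 fold changes of -3.47 for Isg15 and -3.10 for Ifit3. Low subtracted counts were raised to a floor in that fit. The raw Isg15 counts after the drug were 5, 7 and 4, so Isg15 and Ifit3 are not ranked by it. Ifi27, Isg20 and Cmpk2 were lower by 2.06-fold, 1.93-fold and 1.89-fold, and Ifit2 had the smallest difference. In edgeR's quasi-likelihood test these 7 genes had an adjusted p under 0.05, against 1.98% of all 655 genes called lower. The number called was 4 with total count scaling or without Ruxolitinib vehicle day 1 replicate 1, and 3 with limma after background subtraction; Ifit3, Isg15 and Rsad2 were among those called in each of these fits.

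The IFIT proteins bind viral RNA and block its translation, and their genes lie together on chromosome 19. Ifit3 read 8.16, 8.48 and 6.02 normalised counts in the ruxolitinib mice of day 1, whereas mice given vehicle read 47.6 and 57.9. All 3 drug-treated mice were thus well below both vehicle-treated mice, and the log2 fold change was -2.81 ± 0.39 (SE; 3 mice against 2). They were also the lowest of all 13 groups: the group with the next lowest mean, Ruxolitinib vehicle day 7, held 10.3 and 19.5.

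Ifit1 read 2.51, 3.39 and 2.19 after ruxolitinib and 10.99 and 5.48 after vehicle, and its log2 fold change was -1.43 ± 0.63 (SE). The groups did not overlap, but none of the 3 drug-treated lanes was above background for this probe, so the size of the difference is limited by the background counts. With background subtracted and low counts raised to a floor, limma gave a log2 fold change of -2.50 for Ifit1. Its raw counts after the drug were 4, 6 and 4, so this value depends on that floor or on counts near it. Ifit2 stood apart from Ifit1 and Ifit3. It read 21.97, 17.5 and 16.4 after ruxolitinib and 19.2 and 22.6 after vehicle, the groups overlapped, and the log2 fold change was -0.20 ± 0.32 (SE).

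ISG15 is a ubiquitin-like protein that is attached to other proteins in interferon-treated cells. Isg15 read 3.14, 3.96 and 2.19 on day 1 after ruxolitinib and 18.3 and 17.1 after vehicle, a log2 fold change of -2.47 ± 0.39 (SE). All 3 drug-treated mice lay below every other mouse of the study, though only 1 of the 3 lanes was above background for Isg15. ISG20 is an exonuclease that degrades RNA. Isg20 read 89.1, 110.3 and 114.9 after ruxolitinib and 229.9 and 177 after vehicle, with no overlap and a log2 fold change of -0.95 ± 0.21 (SE).

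Rsad2 encodes viperin, which makes a chain-terminating nucleotide from CTP, and Cmpk2, its neighbour on chromosome 12, encodes a mitochondrial nucleotide kinase. Rsad2 read 21.97, 31.7 and 19.7 on day 1 after ruxolitinib and 81.5 and 80.8 after vehicle, a log2 fold change of -1.73 ± 0.28 (SE). Cmpk2 read 51.5, 52.0 and 54.2 after the drug and 101.7 and 97.2 after vehicle, a log2 fold change of -0.92 ± 0.21 (SE). Both genes of the pair were below vehicle in 3 of 3 mice. Cmpk2 was the steadiest member in mice given no drug, with 1.35-fold between the lowest and the highest of 15 mice, and its 3 ruxolitinib values lay below that whole range of 81.0 to 109.5.

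Xaf1 encodes a binding partner of the apoptosis inhibitor XIAP, Ifi27 a small membrane protein and Ifi35 a leucine zipper protein of the interferon response. Xaf1 read 10.7, 10.2 and 9.30 on day 1 after ruxolitinib and 34.8 and 37.3 after vehicle, a log2 fold change of -1.84 ± 0.29 (SE). Ifi27 read 44.6, 55.4 and 55.2 against 117.2 and 97.6, a log2 fold change of -1.04 ± 0.21 (SE). Ifi35 had the smallest difference of the 3, with 14.4, 20.4 and 16.4 against 26.6 and 26.02, a log2 fold change of -0.61 ± 0.24 (SE). In each of these genes, too, the groups did not overlap.

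In 9 of the 10 members, all but Ifit2, every ruxolitinib mouse of day 1 was below both vehicle-treated mice, against 16.3% of all genes tested. A wider comparison set the 3 mice against all 15 mice given no drug on any day. In 7 members, Ifit3, Isg15, Isg20, Rsad2, Cmpk2, Xaf1 and Ifi27, the 3 mice lay below all 15, against 2.29% of all genes. These 7 are the genes that were called against the vehicle of the same day. The mice of that vehicle are among the 15, so this is not separate support. Mice of the other runs are among the 15 as well. Ruxolitinib on day 1 had the lowest of the 13 group means in 8 members. The exceptions were Isg20, lowest with venetoclax on day 1, and Ifit2. This order was not counted over all genes, and the members were chosen with their day 1 differences known. Nothing is read from that count. The median log2 fold change of the 10 members was -1.24, and that of all 655 genes was 0.13.

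**Figure D2:**
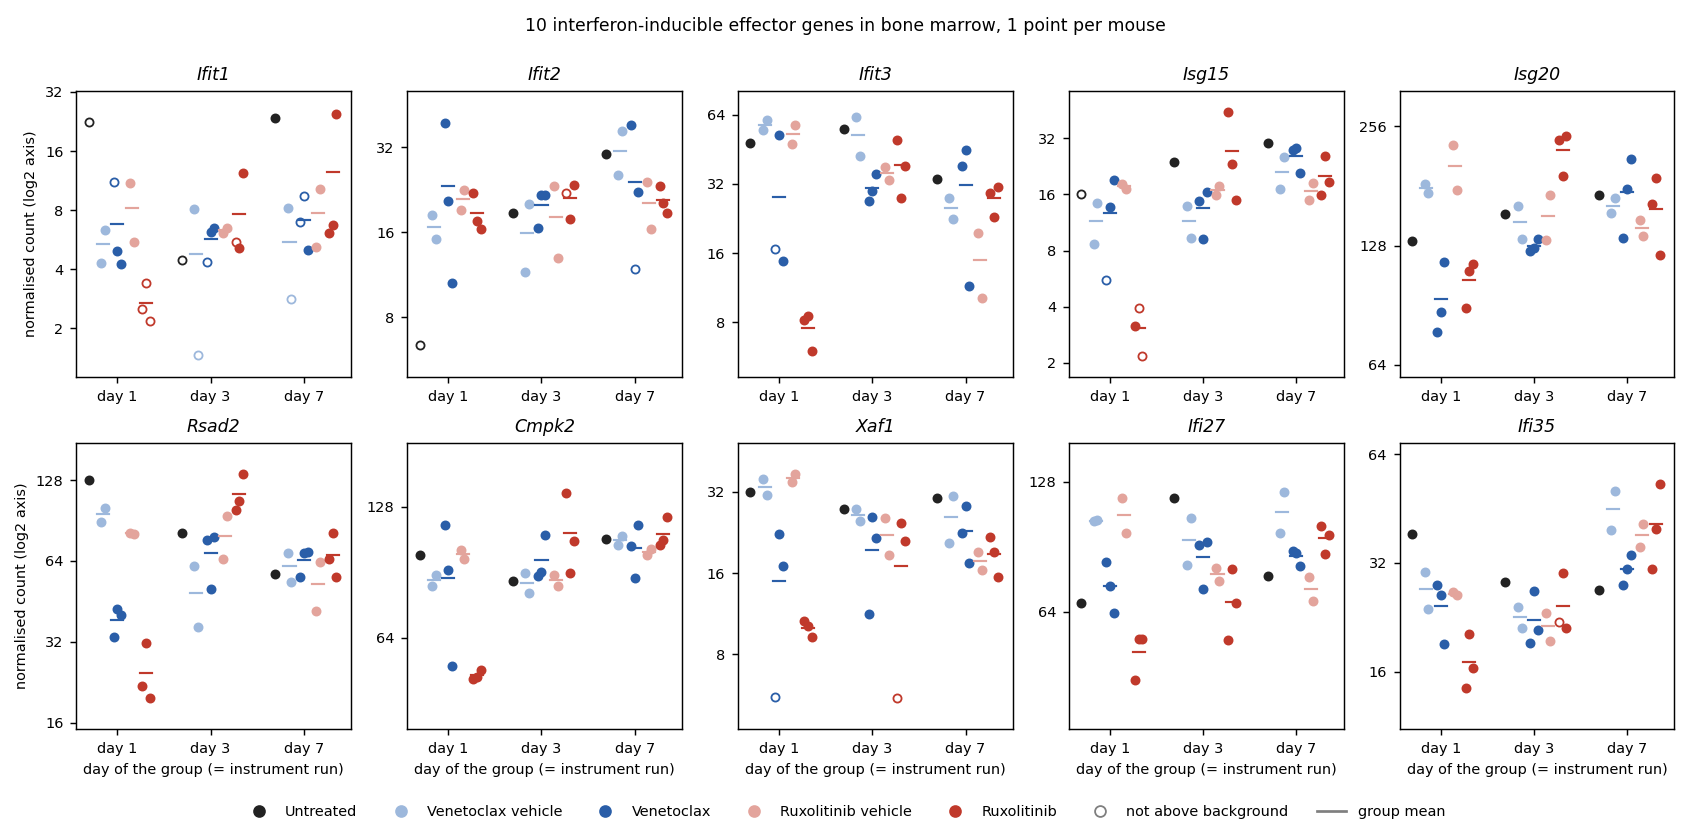
Normalised count of each gene (vertical axis, log2 scale) in every mouse, by day; open points were not above background and short lines are group means. The red ruxolitinib points of day 1 lie below the vehicle points in every panel but Ifit2. Ifit3 is at 6.02 to 8.48 against 47.6 and 57.9. On day 3 and on day 7 no panel has all red points below both points of the ruxolitinib vehicle. The red Isg20 and Rsad2 points of day 3 lie above those of every other mouse of that day.

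Other genes of the interferon pathway were described in the same contrast, from lists of ligands, receptors, kinases, regulators and further inducible genes. The ligand genes were close to background throughout: Ifna1 was above it in 3 of 33 lanes, Ifna4 in 4, Ifnb1 and Ifng in 1 each, and Ifna2 and Ifnl2 in 0, with no raw count over 8. Of the receptors Ifnar1, Ifnar2 and Ifngr1, 0 of 3 were called on day 1 after ruxolitinib, with log2 fold changes of -0.19 to 0.24. The kinase genes Jak1 and Jak2 gave 0.17 ± 0.28 and 0.20 ± 0.32 (log2 fold change ± SE), and neither was called. Irf7, an inducible transcription factor of the pathway, was at -1.08 ± 0.34 (SE) and was not called. Of 13 further inducible genes 11 were lower and 6 were called lower by edgeR. With the 7 members they are the 13 genes called lower in this contrast, 1.98% of all genes. The list, like the members, was chosen with earlier results of these data known, so nothing is read from that overlap. The 6 became 1, Oas2, without Ruxolitinib vehicle day 1 replicate 2, 4 without Ruxolitinib day 1 replicate 1 or with total count scaling, 2 with limma on log2(normalised count + 1) and 1 with limma after background subtraction. The 6 were Oas2, Oas3 and Oasl1 of the 2-5A synthetase family, the RNA sensor Ifih1, the nucleic acid sensor Zbp1 and the chemokine Cxcl10. Oas2 was the most reduced of them, with 11.3, 7.92 and 12.03 normalised counts after ruxolitinib and 43.96 and 45.9 after vehicle.

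On day 1 after venetoclax 8 of the 10 members had a fitted log2 fold change below 0 and 2 above it, and for Ifit1 and Cmpk2, fitted at -0.01 and -0.04, the group means were higher after the drug (6.77 against 5.35 and 87.7 against 86.7 normalised counts). In edgeR's test 0 of 10 were called, against 0.153% of all genes called lower. Limma on log2(normalised count + 1) called 2, Isg20 and Rsad2, while DESeq2 called 0. The median log2 fold change of the 10 members was -0.33 and that of all genes was -0.02. Every venetoclax mouse was below both vehicle-treated mice in 5 members, Ifit3, Isg20, Rsad2, Xaf1 and Ifi27, against 15.7% of all genes. These 5 remained so without the shallow lane.

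Rsad2 had the lowest log2 fold change of the members after venetoclax. It read 33.3, 42.4 and 40.3 after the drug and 89.6 and 101.2 after its vehicle, which gave a log2 fold change of -1.24 ± 0.30 (SE; 3 mice against 2). Isg20 read 77.7, 87.2 and 116.7 after venetoclax and 183.4 and 173.7 after vehicle, a log2 fold change of -0.91 ± 0.24 (SE). In Isg20 all 3 mice also lay below all 15 mice given no drug, the 1 member of which this was true, against 2.75% of all genes. Xaf1 and Ifi27 had log2 fold changes of -0.81 ± 0.33 and -0.53 ± 0.23 (SE).

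Ifit3 was spread widely among the venetoclax mice of day 1, with 16.6, 52.3 and 14.9 against 55.0 and 60.6 in vehicle-treated mice. The mouse at 52.3 was close to the vehicle level, and the mouse at 14.9 was far below it. The value of 16.6 is a raw count of 3, not above background, from the shallow lane of this group. The log2 fold change was -0.69 ± 0.38 (SE), and without Venetoclax day 1 replicate 2, the mouse at 52.3, it was -1.91, and without replicate 3 it was -0.39. Cmpk2 read 116.5, 91.6 and 55.2 against 84.2 and 89.2, with the first pair of mice above both vehicle-treated mice and the other below them. Isg15 read 5.55, 13.7 and 19.1 against 8.63 and 14.3, with overlap and a log2 fold change of 0.27 ± 0.42 (SE). The value of 5.55 is a raw count of 1 from the shallow lane, again not above background. Ifit1, Ifit2, Cmpk2 and Ifi35 had log2 fold changes between -0.14 and 0.27.

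Set side by side, the day 1 changes under the drugs were closest in Isg20 and farthest apart in Isg15 and Ifit3. The ruxolitinib change minus the venetoclax change was -0.04 ± 0.32 (log2 ± SE) for Isg20 and -0.48 ± 0.41 for Rsad2. It was -2.74 ± 0.58 for Isg15, -2.12 ± 0.56 for Ifit3, -1.04 ± 0.44 for Xaf1 and -0.88 ± 0.31 for Cmpk2. The difference was below 0 in 10 of 10 members. They were chosen with their day 1 differences from vehicle known, so nothing is read from that count. The doses, the number of doses a day and the vehicles differed between the drugs, so this difference is not one between compounds at a matched dose. On day 1 the ruxolitinib vehicle minus the venetoclax vehicle was 0.57 ± 0.38 (log2 ± SE) for Isg15 and -0.12 ± 0.37 for Ifit3. For Isg15 only 1 of the 3 ruxolitinib lanes was above background, and 1 venetoclax lane held a raw count of 1.

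**Figure D3:**
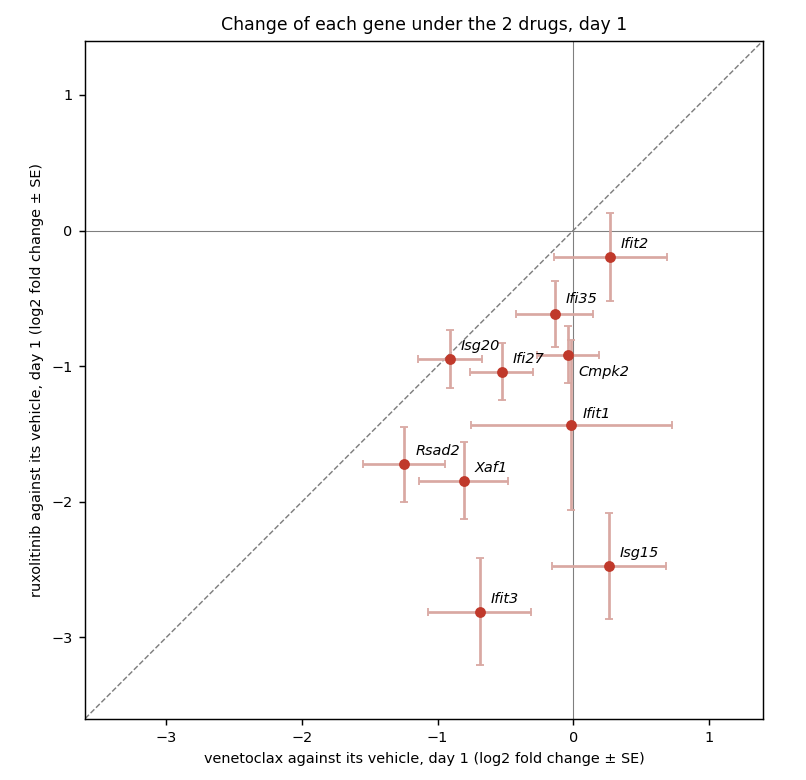
Each point is 1 gene on day 1, with its log2 fold change under venetoclax on the horizontal axis and under ruxolitinib on the vertical axis, each against its own vehicle; bars are standard errors and the dashed line marks equal change. All 10 points lie below the dashed line, Isg20 nearest to it and Isg15 farthest, at 0.27 and -2.47.

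Markers of blood cell types were read beside the day 1 values. In bulk marrow, fewer cells of a type and less RNA per cell cannot be told apart. After ruxolitinib the summed normalised counts of 5 NK cell markers were 33.9 to 35.2, against 47.6 and 58.9 after vehicle, with 4 of the 5 lower and 1 higher. Neutrophil markers summed to 75500 to 87850 against 94230 and 101300, a sum carried by S100a8, while 4 of the 6 were higher and 2 lower, with a median log2 fold change of 0.17. B cell markers summed to 510.3 to 566.7 against 423.1 and 427.2 (4 of 6 higher), T cell markers to 62.8 to 67.8 against 53.1 and 53.8 (5 of 6 higher) and megakaryocyte markers to 190.9 to 269.2 against 152.3 and 177.7 (3 of 3 higher). Plasmacytoid dendritic cell markers summed to 169.5 to 176.1 against 153.4 and 160.3, with 2 of 4 higher, 2 lower and a median of -0.01. Sums of monocyte and macrophage markers overlapped, and edgeR called 0 markers of any list, with 0 to 2 a list at an unadjusted p under 0.05. After venetoclax, B cell markers summed to 275.8 to 305.0 against 357.7 and 424.0 (5 of 6 lower) and those of megakaryocytes to 108.2 to 166.4 against 174.8 and 181.6 (3 of 3 lower). Monocyte and macrophage markers were apart in the other direction, at 561.2 to 617.3 against 445.3 and 535.2, with 3 of 6 higher. The lowest count in any lane is 1, so no marker reads 0. The part of cell composition in the day 1 values was not tested.

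The contrasts of days 3 and 7 were tested. After ruxolitinib 0 of 10 members had every drug-treated mouse below both vehicle-treated mice, against 7.94% of all genes on day 3 and 9.62% on day 7. Fitted log2 fold changes were below 0 for Ifi27 (-0.13), Ifit3 (-0.06) and Xaf1 (-0.02) on day 3 and for Ifit2 (-0.05) on day 7. In edgeR's quasi-likelihood test with Benjamini-Hochberg adjustment 0 of 10 members were called on day 3, on day 7 or on the mean of both days, against 0.153% of all genes in each of the 3 comparisons. At an unadjusted p under 0.05 there were 1, 0 and 2 members, given without a share of all genes. Limma and DESeq2 called 0 in each comparison.

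Over days 3 and 7 together all 10 members had a fitted log2 fold change above 0, from 0.04 for Xaf1 to 0.51 for Rsad2, with a median of 0.24 against 0.02 for all genes. For Xaf1 the group means were 17.04 against 22.2 on day 3 and 18.8 against 17.8 on day 7. Rsad2 read 99.1, 106.8 and 135.1 on day 3 against 64.9 and 94.1 after vehicle, and 65.2, 81.6 and 55.9 on day 7 against 41.5 and 63.5. The groups were apart on day 3 and overlapped on day 7, and the mean log2 fold change of both days was 0.51 ± 0.20 (SE; 95% interval 0.10 to 0.92; adjusted p = 0.538 in edgeR). Isg20 read 236.7, 191.5 and 241.8 on day 3 against 132.3 and 171.9, and its mean log2 fold change was 0.36 ± 0.16 (SE; 95% interval 0.03 to 0.68; adjusted p = 0.643 in edgeR). The intervals of both genes lie above 0 before adjustment, and neither passed the test after it.

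Isg15 read 44.03, 23.3 and 14.9 on day 3 after ruxolitinib against 15.9 and 17.8 after vehicle, and 15.99, 25.8 and 18.6 on day 7 against 14.96 and 18.4. The groups overlapped on both days, and the mean log2 fold change was 0.41 ± 0.24 (SE; 95% interval -0.08 to 0.89). The mouse at 44.03 is the shallow lane of that day, with a raw count of 8. In the members given here, the first day 3 value after ruxolitinib is from that lane. Ifit3 read 49.5, 27.7 and 38.4 on day 3 against 37.96 and 33.3, and 29.1, 22.9 and 31.1 on day 7 against 19.5 and 10.3. Its value of 49.5 is a raw count of 9 from the shallow lane. For its mean over both days the 95% interval of the log2 fold change was -0.30 to 0.87, so that a further decrease of the day 1 size lies outside it.

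Every ruxolitinib mouse was above both vehicle-treated mice in 3 members on day 3, Isg20, Rsad2 and Cmpk2, against 7.63% of all genes, and in 3 on day 7, Ifit3, Cmpk2 and Ifi27, against 8.09%. Of the day 3 mice, 1 is the shallow lane, with raw counts of 43 for Isg20, 18 for Rsad2 and 25 for Cmpk2. On day 7 all 10 members had a fitted level lower in the ruxolitinib vehicle than in the venetoclax vehicle, though the mean of Ifit1 was higher (7.72 against 5.51), with a median log2 difference of -0.29 against -0.15 for all genes, and 0 of 10 passed edgeR's test (1 at an unadjusted p under 0.05). Among 13 further inducible genes, 8 were above and 5 below their vehicle over days 3 and 7, with 0 called.

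After venetoclax, 0 of 10 members were called on day 3, on day 7 or over both days by edgeR, limma or DESeq2, and 0 had an unadjusted p under 0.05 in edgeR. The share of all genes called was 0.0% on day 3, 0.153% on day 7 and 1.07% over both days. Ifit3 read 26.99, 29.9 and 35.3 on day 3 against 62.3 and 42.2 after vehicle, the 1 member with every mouse below both vehicle-treated mice, against 13.1% of all genes. Its log2 fold change was -0.72 ± 0.36 (SE; adjusted p = 0.463 in edgeR). Rsad2, low on day 1, read 76.6, 50.5 and 78.5 on day 3 against 61.1 and 36.3. Its log2 fold change was 0.55 ± 0.29 (SE, adjusted p = 0.482 in edgeR). The mice given the ruxolitinib vehicle that day read 64.9 and 94.1.

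On day 7 every venetoclax mouse was below both vehicle-treated mice in Ifi27 and Ifi35, against 10.7% of all genes. Ifi27 read 88.6, 87.7 and 81.8 against 97.3 and 120.8, and Ifi35 read 27.8, 30.8 and 33.7 against 39.5 and 50.6. Neither passed edgeR's test (adjusted p = 0.999 for both).

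The test of the difference between the drugs called 0 of 10 members on day 3, against 0.153% of all genes, and 0 on day 7, against 0.305%; limma and DESeq2 called 0 as well. At an unadjusted p under 0.05 edgeR gave 1 member on each day, a count without a share of all genes beside it. On day 3 this was Isg20, with a log2 difference, ruxolitinib minus venetoclax, of 0.72 ± 0.32 (SE; 95% interval 0.08 to 1.37; adjusted p = 0.999 in edgeR). On day 7 it was Ifi27, at 0.68 ± 0.32 (SE; 95% interval 0.03 to 1.33; adjusted p = 0.998 in edgeR). In Ifi27 the vehicles of day 7 averaged 72.3 (ruxolitinib) and 109.0 (venetoclax) normalised counts, and the drug groups overlapped. For Isg15, which differed most on day 1, the interval of the difference on day 7 was -0.88 to 1.01.

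**Figure D4:**
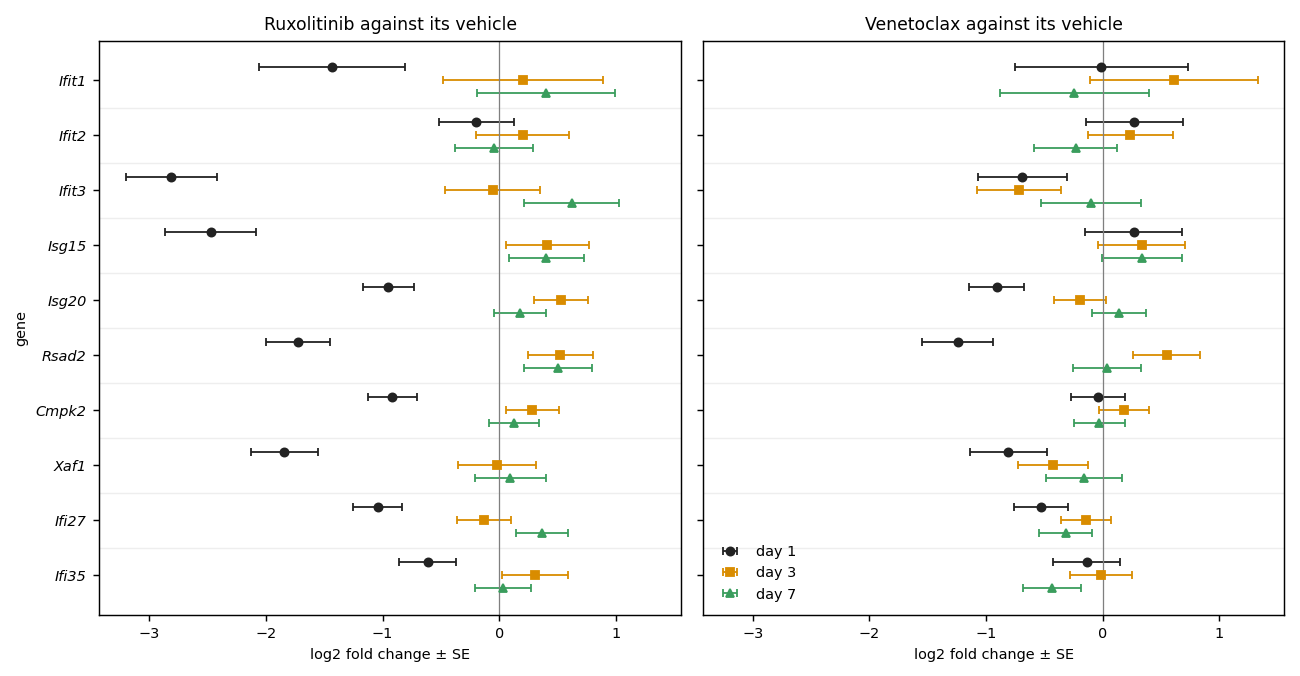
Log2 fold change of each gene against the vehicle of the same day (horizontal axis, bars are standard errors), for ruxolitinib on the left and venetoclax on the right, on days 1, 3 and 7. The ruxolitinib points of day 1 reach -2.81 for Ifit3, and those of days 3 and 7 lie between -0.13 and 0.62; under venetoclax Rsad2 has the lowest point, at -1.24 on day 1.

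Mice given no drug showed how much the members vary without a JAK or BCL2 inhibitor. The range over the 15 mice was 1.35-fold for Cmpk2, 1.75-fold for Isg20, 1.8-fold for Ifi27, 3.52-fold for Isg15 and Rsad2 and 6.07-fold for Ifit3, and 16.1-fold for Ifit1, which was often at background. Between vehicle-treated and untreated mice 0 of 10 members and 0.0% of all genes were called by edgeR, with 1 member at an unadjusted p under 0.05 and 0 called by limma and DESeq2. That member was Isg15, with 16, 23.9 and 30.3 in the untreated mice and 8.63 to 25.3 in 12 vehicle-treated mice. Its log2 fold change was -0.64 ± 0.28 (SE; adjusted p = 0.391 in edgeR), where the median of all genes was -0.14, and the sign turned to 0.08 with background subtracted. Within the runs, vehicle minus untreated was -0.17, -0.74 and -0.68 on the log2 scale for Isg15.

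The vehicles were compared with each other over the 3 days, and edgeR called 0 of 10 members and 0.0% of all genes (0 members at an unadjusted p under 0.05, and 0 called by limma and DESeq2). Ifit3 and Ifi27 had log2 differences, ruxolitinib vehicle minus venetoclax vehicle, of -0.42 ± 0.24 and -0.26 ± 0.14 (SE). Ifit3 also moved across the days in mice given vehicle alone. The 4 vehicle-treated mice of day 1 read 47.6 to 60.6, those of day 3 33.3 to 62.3 and those of day 7 10.3 to 27.7, so that day 1 and day 7 did not overlap. The untreated mice of the 3 runs read 48.0, 55.3 and 33.7. Each day was a run of its own, and these values were not tested.

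The members varied together only in part. Over the 33 mice, with each run centred on its mean, Pearson's r of log2(normalised count + 1) between pairs of members had a median of 0.369 over 45 pairs, from -0.299 for Ifit2 and Rsad2 to 0.712 for Isg15 and Rsad2. In the 15 mice given no drug the median was 0.167. The points share lanes, depth and the housekeeping level, and the drug groups are among the 33 mice, so these are descriptions. Outside the members, the genes with the highest r to their mean were Ifih1 at 0.696, Oas2 at 0.673, H2-T23 at 0.607, Zbp1 at 0.571 and Abcg1 at 0.559, among 346 genes ranked. In the 15 mice given no drug, a ranking added after the values were seen, the leading genes were Btk at 0.724, Card9 at 0.699 and Cd83 at 0.685, and none of the 5 above were in its top 5. Of the ranking over all mice, Ifih1, Oas2 and Zbp1 belong to the list of further inducible genes, H2-T23 encodes a non-classical class I molecule and Abcg1 a cholesterol transporter.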

How the data were processed

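The deposited values are raw nCounter barcode counts per probe, exported by the authors without normalisation, 1 file per mouse, with 6 positive and 8 negative control probes and 20 housekeeping probes. The methods name nCounter Advanced Analysis 2.0.115, which is not in these counts. The methods and the design text name different mouse panels, and the latter gives the doses, 100 for venetoclax and 180 for ruxolitinib, in mg/ml. The header of the day 3 run carries another day.

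Lanes were put on a common scale through their 11 housekeeping probes above background throughout, as a geometric mean. A gene was tested when above background in at least 2 lanes (655 genes). edgeR 4.0.16 in R 4.3.3 fitted 1 quasi-likelihood model of 13 group means on the counts of all 33 mice, with Benjamini-Hochberg adjustment over 655 genes and a threshold of 0.05; the common dispersion was 0.0406 with 20 residual degrees of freedom. Labels do not describe batches of animals, so p-values measure the spread between these mice. Tables and figures used Python 3.11.15 and pandas 2.3.3. Alternatives were TMM, total count and all-housekeeping scaling and 2 other filters on low counts. Limma 3.58.1 was run on log2(normalised count + 1), and also after background subtraction with low counts raised to a floor. Further alternatives were DESeq2 1.42.0, smaller fits, pooled vehicles, a replicate block, and leaving out lanes or mice. The test was tested on simulated counts for ruxolitinib on day 3: of 655 genes 200 were changed and 135 called, 97.8% of them changed. It recovered 77% of 4-fold changes and 55% of 2-fold changes. The members, gene lists and comparisons were chosen with earlier results of these data known. All members are named, and the 5 genes most like them by Pearson's r among those averaging 20 normalised counts or more. Of 3 negative regulators of the pathway 0 were called on day 1 with either drug. Promoter sequences are RefSeq's for GRCm38.p6. Counts of 1 lane carry counting error, larger in the shallow lanes. A gene of the signal carrier list is not reported here.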

Additional observations from a re-analysis of the deposited data

Results flagged for a closer look

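In some members every ruxolitinib mouse was below both vehicle-treated mice on day 1 and above them on a later day. The differences between days were not tested, since day 1 results were known when the genes were chosen. Log2 fold changes were -2.81 on day 1 and 0.62 on day 7 for Ifit3, -0.95 on day 1 and 0.53 on day 3 for Isg20, and -1.73 on day 1 and 0.53 on day 3 for Rsad2. Cmpk2 had -0.92 on day 1, 0.28 on day 3 and 0.13 on day 7. Ifi27 had -1.04 on day 1 and 0.36 on day 7. On day 7 Ifi27 was also above the ruxolitinib vehicle in every ruxolitinib mouse (0.36) and below the venetoclax vehicle in every venetoclax mouse (-0.32). These vehicles differed, with means of 72.3 and 109.0 normalised counts. The drug groups themselves overlapped, at 86.9 to 100.9 after ruxolitinib and 81.8 to 88.6 after venetoclax. The difference between the drugs was 0.68 in the test above and did not pass it. With 3 mice against 2, groups that do not overlap are common, as the shares of all genes given above show.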

How the results depend on the processing

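Counts of members called kept within 1.5 times the reported value except on day 1. For ruxolitinib on day 1 the 7 called became 4 with total count scaling and 3 with limma after background subtraction, and 4 to 7 with 1 mouse left out; for venetoclax on day 1 the 0 called became 1 with total count scaling and 2 with a mean count of at least 10, with limma on log2(normalised count + 1), with a fit of only the groups compared and with both vehicles pooled, and stayed 0 with 1 mouse left out. Among the values of days 3 and 7 and of vehicle against untreated mice that were recomputed, signs turned in Ifit3 under ruxolitinib on days 3 and 7 (-0.0235 with both vehicles pooled), in Isg20 under venetoclax on days 3 and 7 (0.0258 with all housekeeping probes, 0.0007 with DESeq2, 0.0008 with both vehicles pooled, and -0.1219 to 0.0508 with 1 mouse left out) and in Isg15 for vehicle against untreated mice (0.0815 with limma after background subtraction). Among the uncalled day 1 values of venetoclax, Ifit1, Isg15, Cmpk2 and Ifi35 also took both signs, as in Isg15 (-0.09 with both vehicles pooled) and, with 1 mouse left out, Ifit1 (up to 0.32), Cmpk2 (up to 0.20) and Ifi35 (up to 0.03). The median log2 fold change of all genes on day 1 after ruxolitinib was 0.13, and 0.25 with total count scaling; for vehicle against untreated it was -0.14, and -0.30 with all housekeeping probes. Replicate numbers do not pair the mice (r of same-numbered deviations -0.349 to 0.303), and a fit with a replicate block called 7 members for ruxolitinib on day 1 and changed no call of a member, while Cxcl10 was no longer called. Depth limits Ifit1 and Isg15 most, which were above background in 21 and 29 of 33 lanes.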
